A study of Mus musculus with 24 samples.

Results

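The genes described here were 10 components of Wnt signalling. They comprised the ligands Wnt3, Wnt3a, Wnt5a and Wnt8a, the R-spondin Rspo3, the secreted inhibitors Dkk1 and Sfrp1, the nuclear effector Lef1 and the target genes Axin2 and Sp5. They were chosen with earlier results of these data known, and each symbol matched 1 row of a table of 23119 genes. Expression was measured by RNA-seq in 24 libraries of a female F1-hybrid mouse embryonic stem cell line, JB4/EI7HZ2, from a JF1 mother and a B6 father. WT cells were compared with SmcHD1-KO cells (KO), a CRISPR–Cas9 derivative of the same line that lacks the chromatin protein SmcHD1, which acts in silencing of the inactive X. Each genotype was sampled as undifferentiated mESCs, at day 7 and day 9 of differentiation to early neurectoderm, and as neural stem cells (NSCs), with 3 replicates in each of these 8 groups. Both genotypes carried a drug-resistance gene on each X, and mESCs and NSCs were kept in G418 and zeocin, which select for cells with both. mESCs were grown with serum and LIF in 3 µM CHIR99021, which inhibits GSK3, and 1 µM PD0325901, which inhibits MEK. Day 7 and day 9 cells were aggregates that had first passed through an epiblast-like state with Activin and FGF2, and their aggregate medium listed no GSK3 inhibitor. NSCs came from a separate protocol with FGF2 and epidermal growth factor. Stage and medium therefore cannot be told apart, and neither can genotype and cell line, since 1 mutant line was used. The p-values measure the spread between replicates that the study calls biological.

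Wnt ligands are secreted proteins that bind Frizzled receptors. In the canonical branch the signal blocks the complex of Axin, APC and GSK3 that degrades β-catenin, and β-catenin then works with TCF and LEF proteins on target genes. Inhibiting GSK3 has the same effect on β-catenin without a ligand. In the embryo canonical Wnt signalling patterns the primitive streak and posterior body, while the anterior neural plate forms where secreted antagonists keep it low. Noncanonical branches, for which Wnt5a is the best-known ligand, act on cell polarity and movement.

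Smchd1 was lower in KO than in WT libraries at every stage (log2 fold changes from −2.41 at day 7 to −1.96 in NSCs), and its levels did not overlap at any stage. Values are FPKM, fragments scaled to transcript length and to library size. Fold changes marked as log2 are differences of log2(FPKM + 1), which understate changes of low genes, and called means an adjusted p under 0.05 in limma over 12105 tested genes. Pou5f1, a pluripotency marker, had means of 1359 and 1460 FPKM in WT and KO mESCs and of 0.385 and 0.0519 FPKM in NSCs, and Fabp7, a neural stem cell marker, had means of 0.248 and 0.281 FPKM in mESCs and 3862 and 2799.6 FPKM in WT and KO NSCs. Of the 10 Wnt genes, 9 were tested. Wnt3a, at a mean of 0.331 FPKM over all libraries, did not reach the minimum mean of 1. Read totals were not in the files. Relative depth was estimated from the commonest ratio of low FPKM values between libraries, with 21.7% to 31.4% of low genes within 1% of it, and by this estimate 1 read was worth 1.42 times as much FPKM in the shallowest as in the deepest library. For 6 of the 10 genes (Wnt3, Wnt3a, Wnt8a, Rspo3, Dkk1 and Sp5) all low values then lay within 0.1 of a whole number of steps, for the other 4 no step was found, and the approximate numbers of reads given below are FPKM divided by that step.

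Mouse promoters are shown for 4 of the genes called between KO and WT, Dkk1 and Sp5 from day 7 and Wnt3 and Axin2 from day 9, because the TCF/LEF motif is the DNA sequence through which β-catenin reaches canonical target genes. Each run covers 250 bases before and 50 bases from the transcription start on, from RefSeq in build GRCm38.p6, 5′ to 3′ on the strand of the gene. Capitals mark CTTTGAT or CTTTGTT on either strand. Lef1, also called at day 9, had 4 alternative entries without a match, which are not printed.
Dkk1, chr19:30549447-30549746 (minus strand): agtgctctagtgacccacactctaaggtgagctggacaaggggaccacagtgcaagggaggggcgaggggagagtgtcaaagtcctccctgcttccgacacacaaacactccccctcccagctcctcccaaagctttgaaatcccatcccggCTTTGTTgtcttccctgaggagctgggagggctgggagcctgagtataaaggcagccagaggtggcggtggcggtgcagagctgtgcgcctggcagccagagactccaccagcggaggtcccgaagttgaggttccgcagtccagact
Sp5, chr2:70474673-70474972 (plus strand): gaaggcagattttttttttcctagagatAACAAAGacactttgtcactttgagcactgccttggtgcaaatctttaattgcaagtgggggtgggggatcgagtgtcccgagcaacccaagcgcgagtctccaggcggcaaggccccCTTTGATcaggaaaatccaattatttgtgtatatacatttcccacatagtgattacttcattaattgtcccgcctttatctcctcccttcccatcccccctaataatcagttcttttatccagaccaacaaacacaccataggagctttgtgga
Wnt3, chr11:103773925-103774224 (plus strand): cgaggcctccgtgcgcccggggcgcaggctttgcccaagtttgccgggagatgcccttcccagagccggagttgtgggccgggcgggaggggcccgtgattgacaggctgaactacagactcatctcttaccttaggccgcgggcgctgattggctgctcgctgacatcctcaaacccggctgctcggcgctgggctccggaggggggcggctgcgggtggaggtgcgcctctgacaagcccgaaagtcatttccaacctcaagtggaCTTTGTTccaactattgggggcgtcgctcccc
Axin2, chr11:108920099-108920398 (plus strand): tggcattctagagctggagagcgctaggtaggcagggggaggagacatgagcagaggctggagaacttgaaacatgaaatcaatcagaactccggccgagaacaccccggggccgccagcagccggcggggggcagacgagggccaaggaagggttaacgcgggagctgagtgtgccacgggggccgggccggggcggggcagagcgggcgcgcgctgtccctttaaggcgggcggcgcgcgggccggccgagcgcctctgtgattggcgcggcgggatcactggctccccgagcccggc
The Sp5 promoter held 2 matches, CTTTGAT at bases 147 to 153 and CTTTGTT on the other strand at bases 29 to 35. The Dkk1 promoter held CTTTGTT at bases 153 to 159, and the Wnt3 promoter held CTTTGTT at bases 269 to 275, past the start site. No match was found in this window of Axin2. Of all 32851 promoters in the same RefSeq set, 3.73% held CTTTGAT, 5.85% held CTTTGTT and 9.33% held either. Of the 10 genes, 6 had an entry that was used here, with 9 entries in all, of which 3 held a match. The entry of Wnt3a held none. No entry was used for Wnt5a, Wnt8a, Rspo3 and Sfrp1. Wnt8a was left out of this search, so whether the set holds an entry for it was not examined. The shares over all promoters were not limited in this way.

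The first question was whether loss of SmcHD1 changed these genes at each stage. At day 7, Rspo3, Dkk1 and Sp5 fell in KO cells, and at day 9 Wnt3, Rspo3, Lef1 and Axin2 rose while Sfrp1 fell. Rspo3 was thus lower in KO at day 7 and higher in KO at day 9. No gene of the set was called in mESCs or in NSCs. In mESCs 0 of 9 were called in either direction, where 0.116% of all tested genes were called higher and 0.413% lower. At day 7, 3 of 9 were called lower and 0 higher, against 2.5% lower and 1.18% higher among all tested genes. At day 9, 4 of 9 were called higher and 1 lower, against 2.58% and 4.11%. In NSCs 0 of 9 were called, against 2.54% higher and 3.48% lower. The genes were chosen with earlier results of these data known. The counts here and below therefore do not test whether Wnt genes change more often than others. Dkk1 and Wnt3 reached the minimum mean of 1 FPKM only through the group where each was highest. That group was WT day 7 for Dkk1 (15.4 FPKM) and KO day 9 for Wnt3 (7.58 FPKM). Calls that rest on it were not independent of the filter. Over the 9 genes the median log2 fold change was −0.65 at day 7, 0.46 at day 9 and 0 at the other stages, and the median of all tested genes lay between −0.00052 and 0.0073 at these stages. Scaling libraries to the same sum changed the share of calls that were higher, which was 38.6% as deposited and 22.7% after scaling at day 9, and 42.2% against 54.4% for NSCs. No call on these 9 genes in either stage changed under that scaling. Replicate numbers paired the mESC and NSC libraries, and a fit with the number as a block called 98 instead of 64 genes in mESCs and 1145 instead of 729 in NSCs, of all genes tested, without changing a call on the 9.

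**Figure D1:**
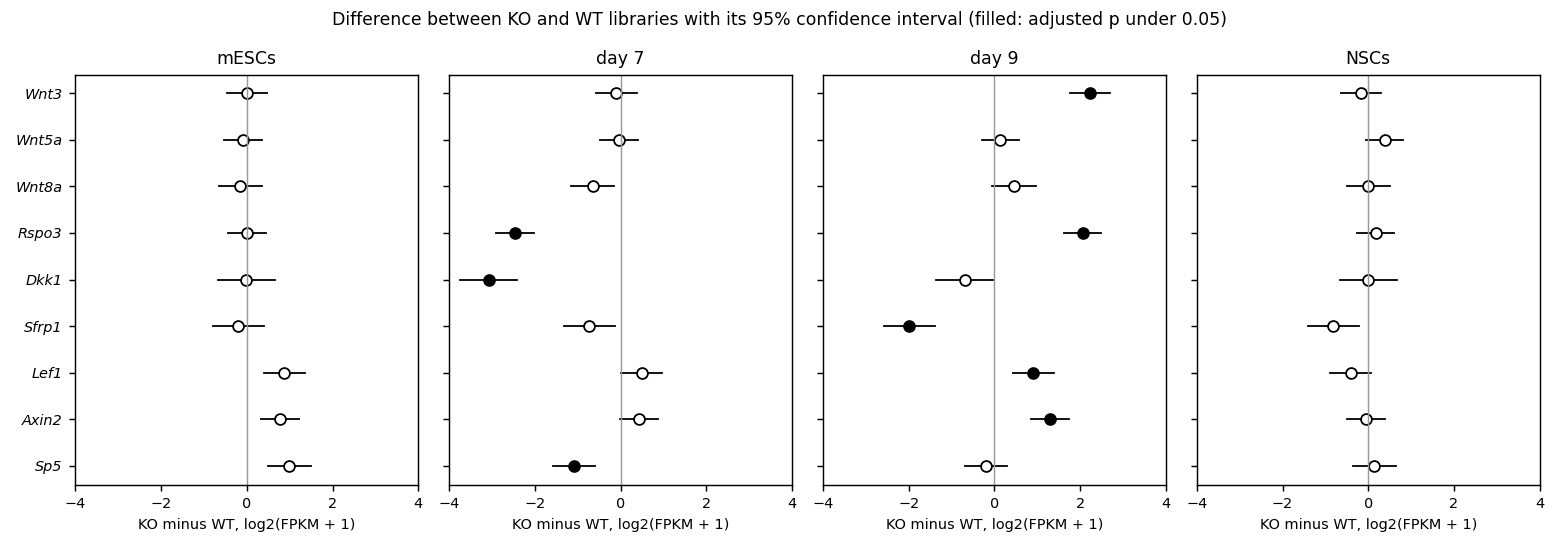
Difference between KO and WT in mean log2(FPKM + 1) for the 9 tested Wnt genes at each stage, with lines for the 95% confidence interval (3 libraries per group). Filled circles mark an adjusted p under 0.05: 3 genes lie left of 0 at day 7, while 4 lie right and 1 left of 0 at day 9.

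The other cell types that embryoid bodies can hold differed between the genotypes at the same stages. A list of 10 primitive streak and mesoderm markers summed to 68.0 to 174 FPKM in WT and to 5.24 to 7.46 FPKM in KO libraries at day 7, and all 5 of its tested genes were called lower in KO. Brachyury (T), which marks the primitive streak and is itself a Wnt target, had a mean of 103 FPKM in WT and 1.59 FPKM in KO at day 7, and its libraries did not overlap. Other genes of the list did: Mesp1 and Msgn1 were at 0 in all 3 KO libraries but also in 1 and 2 of the 3 WT libraries, Tbx6 had means of 1.14 FPKM in WT and 0.832 FPKM in KO, and Hand1 of 2.25 and 1.48 FPKM. At day 9 the same list summed to 21.9 to 57.5 FPKM in WT and 8.11 to 18.8 FPKM in KO, with 4 of 5 called lower. Endoderm markers were called lower in KO for 4 of 5 genes at day 7 and 2 of 5 at day 9, and Sox17, a defining one, was at 6.33 FPKM in WT and 0.0425 FPKM in KO at day 7. The endoderm sum nevertheless overlapped at day 7, at 339.5 to 628 FPKM in WT and 271 to 346 FPKM in KO, since most of it was Trh, with means of 371 and 314 FPKM. At day 9 it was 85.3 to 155 FPKM in WT and 29.4 to 71.6 FPKM in KO. Neurectoderm markers summed to 81.0 to 93.3 FPKM in WT and 154 to 182 FPKM in KO at day 7, with 3 of 7 called higher, and to 78.1 to 110 FPKM and 187 to 199 FPKM at day 9, with 5 of 7 called higher. The summed levels of the pluripotency and neural stem cell lists overlapped between the genotypes in mESCs and at days 7 and 9, where 2 of 7 neural stem cell markers and no pluripotency marker were called, both lower in KO on each day. In NSCs the neural stem cell list summed to 5583 to 7116 FPKM in WT and 4114 to 4969 FPKM in KO. The neurectoderm list summed there to 40.8 to 52.6 FPKM in WT and 58.6 to 65.2 FPKM in KO, and the endoderm list to 0.0597 to 0.161 FPKM in WT and 2.50 to 5.75 FPKM in KO, with Foxa1, Foxa2 and Gata4 at 0 in all 3 WT and above 0 in all 3 KO libraries. In NSCs 2 of 7 neural stem cell markers were called lower, and 1 of 7 neurectoderm, 1 of 5 endoderm and 1 of 8 pluripotency markers higher. In bulk RNA, fewer cells of a type and less RNA per cell cannot be told apart, and the part of these shifts in the Wnt results, those in NSCs included, was not tested.

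**Figure D2:**
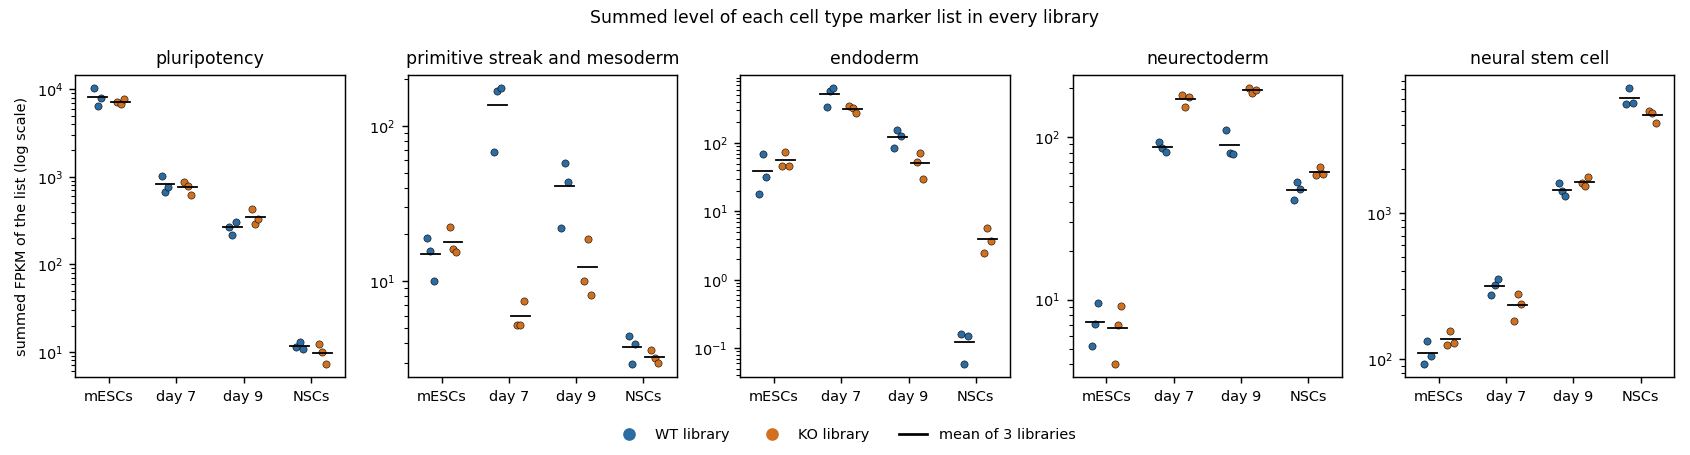
Summed FPKM of 5 marker lists (log scale) in each library, with WT in blue, KO in orange and black lines at the mean of 3 libraries. At day 7 the primitive streak and mesoderm list lies between 5.24 and 7.46 FPKM in KO and above 68.0 FPKM in WT, while the neurectoderm list is higher in every KO library at days 7 and 9.

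Among the ligands, Wnt3 differed between the genotypes at day 9. Wnt3, a canonical ligand required for primitive streak formation, was at 1.29, 0.542 and 0.613 FPKM in the 3 WT libraries and at 8.81, 5.003 and 8.94 FPKM in the 3 KO libraries at day 9. All KO libraries stood above all WT libraries, with about 83 to 143 reads against 9 to 22. The mean was 9.29 times higher in KO, a log2 fold change of 2.23 ± 0.23 (SE, n = 3 per group; adjusted p = 8.02e-07, limma). At the other 3 stages the group means of Wnt3 ran from 0.411 to 1.63 FPKM and the genotypes overlapped. KO day 9 was the highest of the 8 groups and stood apart from the next, WT day 7, while each of the other groups overlapped its neighbour in order of mean level.

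Wnt3a, the close relative of Wnt3, fell under the filter on low values but had a like pattern of levels. At day 9 it was at 0, 0.0688 and 0.1401 FPKM in WT, about 0, 1 and 2 reads, and at 1.34, 0.827 and 1.98 FPKM in KO, about 19, 12 and 26 reads. Every KO library was above every WT library, and without the filter on low values the log2 fold change was 1.13 (adjusted p = 7.42e-06, limma). At day 7 it was at 0.825, 0.954 and 0.503 FPKM in WT and 0.390, 0.163 and 0.570 FPKM in KO, which overlapped. It was listed at 0 in WT mESCs and in all 6 NSC libraries, where a count of 0 allows up to about 0.239 FPKM in WT mESCs, 0.214 FPKM in WT NSCs and 0.226 FPKM in KO NSCs (3 reads per library).

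Wnt5a, the noncanonical ligand, did not pass the test between the genotypes at any stage. On the log2(FPKM + 1) scale the largest of its 4 differences was in NSCs, where WT libraries were at 7.88, 12.96 and 8.47 FPKM and KO libraries at 10.9, 15.1 and 12.6 FPKM. The genotypes overlapped, with a log2 fold change of 0.38 (95% confidence interval −0.05 to 0.82; adjusted p = 0.361, limma). At day 7 and day 9 the intervals of the difference in log2(FPKM + 1) were −0.48 to 0.39 and −0.30 to 0.57. At WT means of 1.54 and 3.49 FPKM this scale understates fold changes of FPKM, so the intervals limit those changes less closely.

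Wnt8a, a canonical ligand of the posterior embryo, peaked at day 7 in both genotypes. WT day 7 libraries were at 38.1, 25.2 and 14.8 FPKM and KO day 7 libraries at 10.6, 21.3 and 15.1 FPKM. The ranges overlapped, and the log2 fold change of −0.65 ± 0.24 (SE, n = 3 per group) did not pass the test (adjusted p = 0.184, limma). The size rested on single libraries: without WT replicate 3, the lowest WT library, the change was −0.99 and passed the test (adjusted p = 0.0167), and without WT replicate 1, the highest, it was −0.34 (0.610). At day 9 Wnt8a was at 0.520, 0.533 and 0.542 FPKM in WT, 4 reads in each library, and at 1.77, 0.933 and 0.738 FPKM in KO, which did not overlap but did not pass the test (adjusted p = 0.358). It was listed at 0 in all 6 NSC libraries.

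Rspo3, which raises Wnt receptor levels at the cell surface and so amplifies Wnt signals, changed in opposite directions at days 7 and 9. At day 7 it was at 5.91, 8.68 and 8.48 FPKM in WT, about 74 to 94 reads, and at 0.378, 0.663 and 0.662 FPKM in KO, about 5 to 7 reads. The groups did not overlap, and the mean was 13.6 times lower in KO (log2 fold change −2.46 ± 0.21 SE, n = 3 per group; adjusted p = 1.33e-07, limma). At day 9 it was at 0.859, 0.560 and 1.06 FPKM in WT and at 9.98, 5.68 and 4.87 FPKM in KO, about 7 to 13 reads against 55 to 122. Here all KO libraries were above all WT libraries, and the mean was 8.29 times higher (log2 fold change 2.06 ± 0.21 SE, n = 3 per group; adjusted p = 9.44e-07). In mESCs all 6 libraries were listed at 0, where a count of 0 allows up to about 0.278 FPKM in WT (3 reads per library, counting error only). In NSCs the genotypes overlapped, between 0 and 0.651 FPKM in WT and between 0.245 and 0.597 FPKM in KO. The levels of WT day 7 and KO day 9, the highest groups, overlapped each other.

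Dkk1, a secreted inhibitor that binds the coreceptors LRP5 and LRP6, fell most in KO cells at day 7. WT libraries were at 5.6, 20.9 and 19.7 FPKM, about 65 to 210 reads, and KO libraries at 1.06, 0.409 and 0.714 FPKM, about 4 to 13 reads. The groups did not overlap, although WT replicate 1 was well below the other WT libraries, as it was for the primitive streak and mesoderm sum (68.0 FPKM against 168 and 174 FPKM). It was also the lowest WT library for Rspo3, by less. The mean was 21.2 times lower in KO (log2 fold change −3.08 ± 0.32 SE, n = 3 per group; adjusted p = 2.46e-06, limma), and the call held without any 1 of the 6 libraries. At day 9 Dkk1 was at 1.77, 3.79 and 2.72 FPKM in WT and 1.41, 1.90 and 0.668 FPKM in KO, which overlapped (log2 fold change −0.69; adjusted p = 0.265). In mESCs and NSCs no library exceeded 5 reads.

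Sfrp1, a soluble Frizzled-related protein that binds Wnt ligands, was the most abundant of the 10 genes in embryoid bodies and fell in KO cells at day 9. It was at 184, 184 and 195 FPKM in WT and at 32.2, 90.5 and 34.7 FPKM in KO at day 9. The groups did not overlap, but KO replicate 2 lay between the WT libraries and the other KO libraries. That library was also the highest KO library at day 9 in the primitive streak and mesoderm sum (18.8 FPKM against 10.0 and 8.11 FPKM) and the endoderm sum (71.6 FPKM against 53.5 and 29.4 FPKM), and the lowest for Wnt3, Lef1 and Axin2. The mean was 3.58 times lower in KO (log2 fold change −1.98 ± 0.29 SE, n = 3 per group; adjusted p = 9.51e-05, limma). Fitted to the 6 day 9 libraries alone the adjusted p was 0.0574. At day 7 it was at 123, 195 and 192 FPKM in WT and 94.5, 119 and 89.0 FPKM in KO, all KO libraries below all WT libraries, without passing the test (log2 fold change −0.73; adjusted p = 0.214). In NSCs it was at 5.92, 3.90 and 2.88 FPKM in WT and 2.21, 2.06 and 1.46 FPKM in KO, again without overlap and without passing the test (adjusted p = 0.105). With a pseudocount of 0.1 this last difference passed it (adjusted p = 0.0456).

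Lef1, a DNA-binding partner of β-catenin and itself induced by Wnt signals, rose in KO cells at day 9. WT libraries were at 2.58, 4.04 and 3.72 FPKM and KO libraries at 7.96, 6.54 and 7.32 FPKM. They did not overlap, and the log2 fold change was 0.91 ± 0.23 (SE, n = 3 per group; adjusted p = 0.0168, limma). This call was lost without WT replicate 1 (adjusted p = 0.0901), without KO replicate 1 (0.0846) or without KO replicate 3 (0.0536), and with a pseudocount of 0.1 (0.146). In mESCs Lef1 was at 17.7, 19.8 and 15.2 FPKM in WT and 31.0, 34.0 and 33.4 FPKM in KO. Every KO library was above every WT library, but the log2 fold change of 0.87 ± 0.23 did not pass the test (adjusted p = 0.108). At day 7 the genotypes overlapped. In NSCs Lef1 was at 1.85, 0.554 and 0.235 FPKM in WT and 0.278, 0.249 and 0.476 FPKM in KO. These overlapped, with WT replicate 1 above all the others, and the log2 fold change of −0.41 (adjusted p = 0.387) was −0.06 without that library (0.931).

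Axin2, a negative-feedback target that canonical Wnt signalling induces in most tissues, rose in KO cells at day 9. It was at 5.24, 6.31 and 4.75 FPKM in WT and 17.1, 11.4 and 16.1 FPKM in KO. The groups did not overlap, and the mean was 2.74 times higher in KO (log2 fold change 1.29 ± 0.21 SE, n = 3 per group; adjusted p = 0.000337, limma). In mESCs it was at 15.3, 14.8 and 16.8 FPKM in WT and 30.7, 20.7 and 33.2 FPKM in KO. These did not overlap either, with a log2 fold change of 0.78 ± 0.21 that did not pass the test (adjusted p = 0.131). In NSCs the group means were 19.1 ± 4.93 FPKM in WT and 18.2 ± 2.66 FPKM in KO (SD, n = 3), and the 95% confidence interval of the difference was −0.49 to 0.39 on the log2 scale.

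Sp5, a zinc-finger transcription factor gene that β-catenin activates directly, fell in KO cells at day 7. WT libraries were at 4.26, 6.74 and 3.84 FPKM, about 34 to 63 reads, and KO libraries at 2.89, 0.987 and 1.64 FPKM, about 9 to 33 reads. They did not overlap, and the log2 fold change was −1.09 ± 0.24 (SE, n = 3 per group; adjusted p = 0.00823, limma). This call was lost without WT replicate 2 (adjusted p = 0.0848), without KO replicate 2 (0.0713) and in a fit to the 6 day 7 libraries alone (0.0626). In mESCs Sp5 was at 31.9, 54.8 and 42.2 FPKM in WT and at 83.6, 80.7 and 89.4 FPKM in KO. All KO libraries were higher, with a mean 1.97 times that of WT, but the log2 fold change of 0.99 ± 0.24 missed the threshold (adjusted p = 0.0665) and passed it only without WT replicate 2 (0.0331) among the fits that left out 1 library. At day 9 the genotypes overlapped.

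The canonical readouts Lef1, Axin2 and Sp5 were therefore higher in all KO than in all WT mESC libraries without being called, and in the same comparison 11% of all tested genes had libraries that did not overlap. At day 7, 4 of the 9 tested genes did not overlap against 24% of all, at day 9, 6 of 9 against 32.3%, and in NSCs 2 of 9 against 16.7%. The 2 in NSCs were Sfrp1 and Sp5, and Sp5 there stood at 1 read in each KO library and at 0 in WT. At day 9 Lef1 and Axin2 were called higher in KO while Sp5 was not, with a 95% confidence interval for Sp5 of −0.69 to 0.30.

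**Figure D3:**
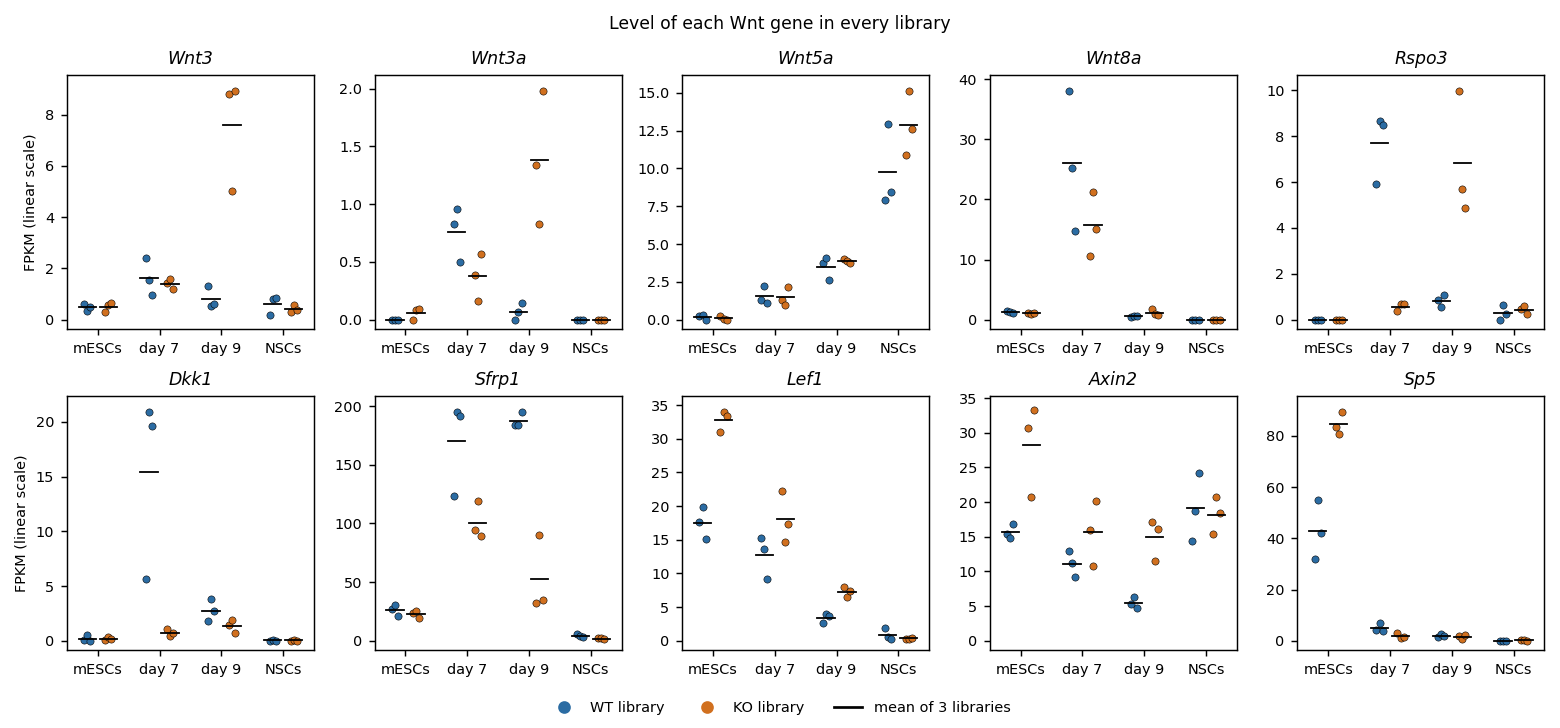
FPKM (linear scale, a separate axis for each gene) of the 10 Wnt genes in each of 24 libraries, with WT in blue, KO in orange and black lines at the mean of 3 libraries. Rspo3 is high in WT at day 7 and in KO at day 9, Dkk1 is highest in WT at day 7, and Wnt3 and Wnt3a are highest in KO at day 9.

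Whether the KO effect differed between stages was tested on the difference itself. Relative to the effect in mESCs, 3 of 9 genes differed at day 7 (Rspo3 by −2.46 ± 0.30, Dkk1 by −3.07 ± 0.45 and Sp5 by −2.08 ± 0.34 on the log2 scale, SE), where 1.68% of all tested genes were called. At day 9, 3 of 9 differed from mESCs (Wnt3 by 2.21 ± 0.32, Rspo3 by 2.06 ± 0.30 and Sfrp1 by −1.79 ± 0.40), against 2.68% of all. In NSCs 1 of 9 did (Lef1 by −1.28 ± 0.33), against 2.26%. These 3 comparisons share the mESC libraries. The effect at day 9 minus that at day 7, a comparison added after the data were seen, was called for Rspo3 (4.52 ± 0.30; adjusted p = 8.08e-09, limma), Wnt3 (2.32 ± 0.32; 1.25e-04) and Dkk1 (2.38 ± 0.45; 0.00441, but 0.132 with a pseudocount of 0.1), against 1.83% of all tested genes. For Rspo3 the 2 effects had opposite signs and both were called. For Wnt3 only the day 9 effect and for Dkk1 only the day 7 effect was called. The Lef1 difference in NSCs was lost without any 1 of the 6 KO libraries or WT mESC replicate 1 or 3 (adjusted p up to 0.100), and the Sfrp1 difference at day 9 without WT mESC replicate 3, KO mESC replicate 2 or KO day 9 replicate 1 or 3 (up to 0.0623). With libraries scaled to the same sum, the share of called genes with a higher effect than in mESCs was 36.4% rather than 49.4% for day 9, and 61.7% rather than 50.4% for NSCs.

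The second question was how the genes changed with differentiation in each genotype. In WT cells, the 3 tested ligands and the secreted modulators rose by day 7 and the canonical readout Sp5 fell. Wnt3a, not among those tested, rose by 0.81 on the log2 scale without the filter on low values (adjusted p = 3.38e-05, limma). From mESCs to day 7, 6 of 9 genes rose and 1 fell in WT, against 29.1% and 30.2% of all tested genes, and 5 rose and 3 fell in KO, against 29.5% and 31.8%. From mESCs to day 9, 4 rose and 4 fell in WT, against 36.4% and 35.1%, and 5 rose and 3 fell in KO, against 35.7% and 35.6%. Of the KO calls at day 9, the rise of Dkk1 was lost without KO day 9 replicate 2 (adjusted p = 0.0612, limma). That of Sfrp1 was lost in a fit to the compared libraries alone (0.0827). At day 7 the fall of Lef1 in KO was lost with a pseudocount of 0.1 (0.0587). From mESCs to NSCs, 1 rose and 4 fell in WT, against 36.9% and 38.3%, and 2 rose and 5 fell in KO, against 37.7% and 38.2%. Of the KO calls in NSCs, the rise of Rspo3 was lost without any 1 of the 6 libraries but KO NSC replicate 3 (adjusted p up to 0.103, limma), the fall of Axin2 was lost without KO mESC replicate 1 or 3 or KO NSC replicate 1 (up to 0.0835), and under the same sum the Axin2 change was −0.09 (0.746). From day 7 to day 9, 1 rose and 6 fell in WT, against 18.5% and 15.3%, while 3 rose and 3 fell in KO, against 17.2% and 13.4%. The comparisons with mESCs share the mESC libraries of their genotype. Scaling every library to the same sum shifted the median of all genes by 0.18 to 0.44 in the comparisons with mESCs and by 0.12 from day 7 to day 9 in WT. Under it the share of calls against mESCs that were higher was 66.4% instead of 49.1% in WT and 63.3% instead of 48.1% in KO for day 7, 69.1% instead of 50.9% and 64.0% instead of 50.1% for day 9, and 66.2% instead of 49.1% and 68.3% instead of 49.7% for NSCs. Between day 7 and day 9 in WT it was 72.2% instead of 54.6%.

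The ligands followed different time courses. Wnt5a had a higher mean at each later stage. In WT it ran from 0.171 FPKM in mESCs to 1.54 at day 7, 3.49 at day 9 and 9.77 FPKM in NSCs. In KO it ran from 0.101 through 1.48 and 3.87 to 12.9 FPKM. The difference between day 9 and NSCs, which came from a separate protocol, was not tested. Neighbouring stages did not overlap within either genotype. The log2 change of Wnt5a from mESCs to NSCs was 3.18 ± 0.21 in WT and 3.65 ± 0.21 in KO (SE, n = 3 per group). With a pseudocount of 0.1 its step from day 7 to day 9 in WT missed the threshold (adjusted p = 0.0546, limma). Wnt8a instead peaked at day 7, rising from a mean of 1.28 to 26.0 FPKM at day 7 in WT (log2 change 3.48 ± 0.24) and from 1.05 to 15.7 FPKM in KO (2.97 ± 0.24). By day 9 it had fallen by 4.05 and 2.93 on the log2 scale. Its level in WT at day 9 was also called lower than in mESCs (adjusted p = 0.0422), a call lost without any 1 of those 6 libraries (0.0575 to 0.103). Wnt3 rose from mESCs to day 7 by 0.79 in WT and 0.68 in KO, the latter lost without KO mESC replicate 1 (adjusted p = 0.0563), and from day 7 to day 9 it rose by 1.80 ± 0.23 in KO (adjusted p = 3.48e-06), while the change of −0.52 in WT did not pass the test (0.0798).

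Rspo3, the gene whose KO effect differed most between day 7 and day 9 among the 9, fell by 2.24 ± 0.21 on the log2 scale from day 7 to day 9 in WT (adjusted p = 3.89e-08, limma) and rose by 2.27 ± 0.21 in KO (5.45e-08). Against mESCs, where it was listed at 0, its mean was at least 27.7-fold higher in WT at day 7 and at least 22.85-fold higher in KO at day 9, taking 3 reads per library as the floor. Dkk1 rose by 3.61 ± 0.32 from mESCs to day 7 in WT and fell by 1.97 ± 0.32 to day 9, whereas in KO its change to day 7, 0.54 ± 0.32, did not pass the test (adjusted p = 0.150). Sfrp1 rose from a mean of 26.5 to 170.0 FPKM at day 7 and stood at 188 FPKM at day 9 in WT. In KO it rose from 22.9 to 101 FPKM at day 7 and fell to 52.5 FPKM at day 9 (log2 change −1.08 ± 0.29; adjusted p = 0.00694), although the 2 stages overlapped and the fall missed the threshold in a fit to those 6 libraries alone (0.128). It was lowest in NSCs of both genotypes.

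Of the canonical readouts, Lef1 and Sp5 had their highest means in mESCs within each genotype, the stage grown with the GSK3 inhibitor, and Axin2 had its highest mean there in KO. Sp5 fell from a mean of 43.0 FPKM in WT mESCs to 4.94 at day 7 and 1.98 at day 9, and from 84.6 to 1.84 and 1.63 FPKM in KO. The 3 WT and 3 KO mESC libraries, at 31.9 FPKM and above, stood apart from every later library, at 6.74 FPKM and below, and the log2 change to day 7 was −2.89 ± 0.24 in WT and −4.97 ± 0.24 in KO. Lef1 fell from 17.6 to 3.45 FPKM at day 9 and 0.881 FPKM in NSCs in WT, a mean carried by replicate 1, and from 32.8 to 7.27 and 0.335 FPKM in KO. Axin2 behaved otherwise, since it fell to 5.43 FPKM at day 9 in WT but was at 19.1 FPKM in WT NSCs, where Sp5 was listed at 0 and Wnt5a was at its highest. From day 7 to day 9 Axin2 fell by 0.91 ± 0.21 on the log2 scale in WT (adjusted p = 0.00228, limma) and changed by −0.05 in KO (0.896). Sp5 likewise fell by 0.99 ± 0.24 in WT (0.00297), with −0.10 in KO (0.802), and Lef1 fell in both, by 1.61 and 1.19. The difference between the genotypes in this change was not called for Axin2 (0.86; adjusted p = 0.219) or Sp5 (0.89; 0.308).

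Other genes of the pathway were taken from a list of 88, also chosen with earlier results known, of which 69 were tested. In mESCs 1 was called higher and 1 lower in KO, against 0.116% and 0.413% of all tested genes. At day 7 the counts were 7 and 8, against 1.18% and 2.5%, at day 9 they were 9 and 7, against 2.58% and 4.11%, and in NSCs 2 and 4, against 2.54% and 3.48%. The counts in NSCs, and 1 receptor of 16 at day 7, are near these backgrounds. The list's median log2 fold change stayed between −0.06 and 0.08 at all 4 stages. By role, other ligands were called only upward at day 7 (2 of 5 tested) and day 9 (3 of 5), and planar polarity genes only downward at both stages (4 of 10 each). Receptors were called in 1 of 16 at day 7 and in 4 of 16 at day 9, with 2 in each direction. Of the degradation complex and its regulators, 1 of 11 was called at each of these stages.

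Named members of that list show the sizes. Wnt1, a ligand of the midbrain and dorsal neural tube, rose in KO at day 7 from 0.376 ± 0.240 to 11.6 ± 7.36 FPKM (SD, n = 3; log2 fold change 3.00, adjusted p = 8.59e-06, limma). Wnt8b, a forebrain ligand, rose at day 9 from 0.0552 ± 0.00114 to 6.77 ± 1.78 FPKM, and Rspo1, a relative of Rspo3, rose at day 9 from 0.142 ± 0.123 to 7.36 ± 1.498 FPKM. Among secreted inhibitors, Cer1 fell at day 7 from 69.4 ± 30.3 to 1.87 ± 1.49 FPKM while Frzb rose from 15.9 ± 2.85 to 30.7 ± 3.05 FPKM. The caudal gene Cdx2, a Wnt target of the posterior embryo, was higher in KO mESCs (19.2 ± 6.70 against 7.04 ± 1.65 FPKM; adjusted p = 0.00149) and lower in KO at day 7 (0.221 ± 0.191 against 5.13 ± 0.890 FPKM; 1.03e-07). Wls, which carries Wnt ligands to the cell surface, was lower in KO mESCs, at 4.18 ± 1.23 against 9.31 ± 1.46 FPKM. A fit to the mESC libraries alone called 1 gene in all, so the mESC calls on Cdx2 and Wls do not both hold there. The planar polarity gene Prickle1 and the regulator Dact1 fell in KO at day 9, to 4.14 ± 1.00 from 12.3 ± 3.23 FPKM and to 3.03 ± 0.408 from 10.7 ± 3.76 FPKM. In NSCs the receptor Fzd10 rose from 1.56 ± 0.707 to 7.87 ± 1.53 FPKM and the coreceptor Lrp5 from 15.6 ± 0.557 to 22.2 ± 3.19 FPKM, while the kinase Csnk1a1 fell from 145 ± 8.81 to 107 ± 5.23 FPKM and the R-spondin receptor Lgr5 from 7.44 ± 2.05 to 4.59 ± 0.289 FPKM.

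**Figure D4:**
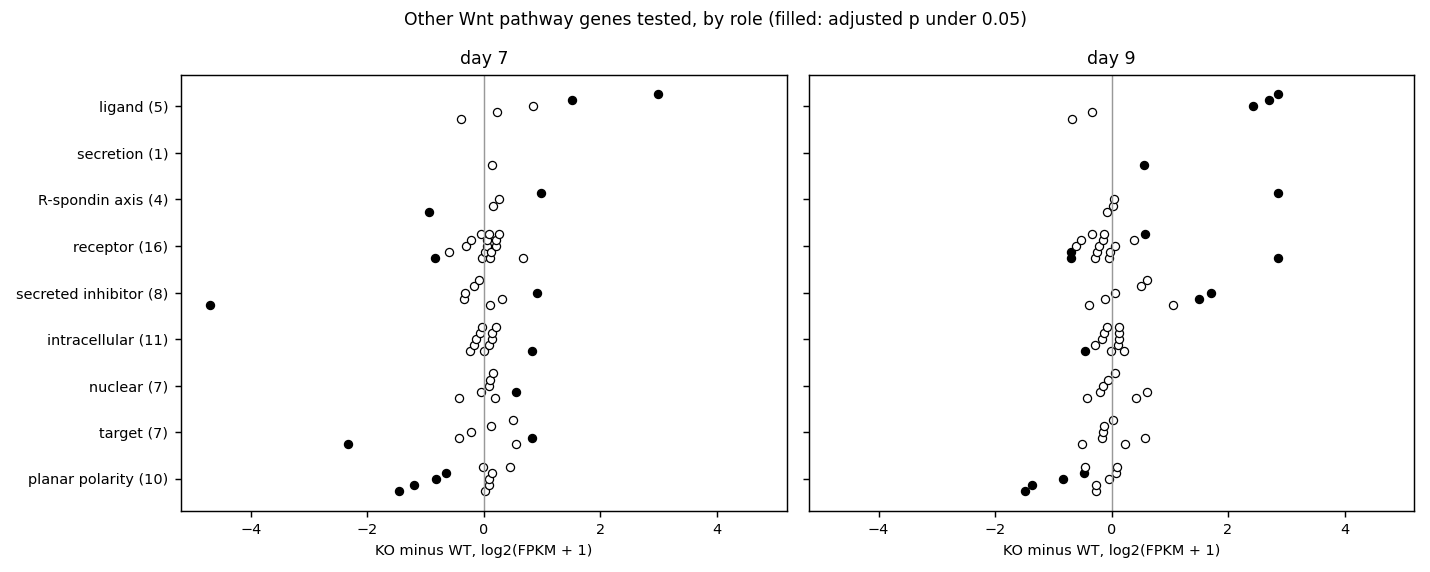
KO minus WT difference in mean log2(FPKM + 1) for each of the 69 tested pathway genes outside the set of 10, by role with the number tested in brackets, at day 7 and day 9. Filled circles mark an adjusted p under 0.05; called ligands lie right of 0 and called planar polarity genes left of 0 at both stages.

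Genes with a like profile were found by the root mean square difference between the 8 group means of log2(FPKM + 1), each centred on its own mean, over all tested genes. For Wnt5a they were Sox5 (0.145) and Slc22a17 (0.153), and for Axin2 Ldhb (0.220) and Abcc4 (0.285). Wnt3 was most like Slc44a5 (0.235) and Hoxb7 (0.283), Dkk1 most like Samd3 (0.268) and Aplnr (0.305), and Sp5 most like Klf5 (0.3002) and AA467197 (0.315). Lef1 followed with Rbpms2 (0.320) and Cdc42ep5 (0.367), and Sfrp1 with Sulf1 (0.379) and Gpx3 (0.413). Rspo3 and Wnt8a had the largest differences to their nearest genes, at 0.536 for Wfikkn1 and 0.596 for 1700009P17Rik, and at 0.622 for Fgf8 and 0.631 for Fgf5. The differences are on the log2 scale, describe 8 group means only and were not scaled to the range of each gene. That range ran from 2.16 for Axin2 to 6.42 for Sp5, so the differences do not rank likeness across genes.

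In the mm9 coordinates of the table, Wnt3 (chr11:103635489-103679335), Wnt3a (chr11:59061544-59104253) and Axin2 (chr11:108781663-108812095) lay on chromosome 11. Rspo3 was at chr10:29172913-29255673, Dkk1 at chr19:30620374-30623986, Sfrp1 at chr8:24521974-24560104, Lef1 at chr3:130813389-130926249, Sp5 at chr2:70312980-70315783, Wnt5a at chr14:29318659-29338701 and Wnt8a at chr18:34701982-34707715. None of these gene intervals overlapped another entry of the table.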

How the data were processed

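RNA was measured in 24 libraries (8 groups of 3) with a stranded mRNA kit. Per the labels and methods, the authors trimmed reads with Trim Galore 0.6.6, aligned them to mm9 with TopHat2 2.1.1, removed rRNA and X-linked reads, and deposited FPKM values from Cuffdiff. The normalization between libraries, read totals and strand setting are not given in the sources used here. A further 12 FPKM columns of other samples were not used.

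Genes with a mean of at least 1 FPKM (12105) were tested as log2(FPKM + 1) in limma 3.58.1 (R 4.3.3, statmod 1.5.0), with 8 groups in 1 fit, a trended robust prior and Benjamini-Hochberg adjustment over all tested genes. The fit was tested on simulated data. An exact permutation test of 3 against 3 libraries cannot go below p = 0.1. The FPKM of 1 read was found from steps in low values. Its intervals and floors cover counting error only.

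The 10 genes, the pathway list and the marker lists were chosen with earlier results of these data known. Other pathway genes were named by a rule: at each stage, the 2 called in each direction with the largest change among those with a mean of at least 5 FPKM in the higher group and no overlap between the genotypes. For each gene, the 2 tested genes nearest in profile were named. Replicate numbers were taken as pairing samples where every same-number correlation of deviations was over 0.1, which held in mESCs (0.14 to 0.44) and NSCs (0.18 to 0.34) but not at day 7 or day 9. Alternatives were a pseudocount of 0.1, no filter, 2 other scalings, a replicate block, the compared groups alone and leaving out each library.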

Additional observations from a re-analysis of the deposited data

Results flagged for a closer look

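The effect of the knockout differed between stages, by a test of the difference itself in limma with Benjamini-Hochberg adjustment (log2 scale, 3 libraries in each group), for 10 values. At day 7, relative to mESCs, the effect was lower for Rspo3 by −2.46 (SE 0.30; adjusted p = 5.30e-05), for Dkk1 by −3.07 (SE 0.45; 0.000752) and for Sp5 by −2.08 (SE 0.34; 0.00163). At day 9, relative to mESCs, it was higher for Wnt3 by 2.21 (SE 0.32; 0.000217) and for Rspo3 by 2.06 (SE 0.30; 0.000221) and lower for Sfrp1 by −1.79 (SE 0.40; 0.0172), a call lost without 4 of the 12 libraries in turn (adjusted p up to 0.0623). In NSCs, relative to mESCs, it was lower for Lef1 by −1.28 (SE 0.33; 0.0409), a call lost without 8 of the 12 libraries in turn (adjusted p up to 0.100), with a pseudocount of 0.1 (0.115) and with libraries scaled to the same sum (0.0700). These 7 values share the mESC libraries. At day 9, relative to day 7, it was higher for Wnt3 by 2.32 (SE 0.32; 0.000125), for Rspo3 by 4.52 (SE 0.30; 8.08e-09) and for Dkk1 by 2.38 (SE 0.45; 0.00441, but 0.132 with a pseudocount of 0.1), a comparison chosen after seeing the data. Rspo3 appears in all 3 comparisons that involve day 7 or day 9. The primitive streak and mesoderm markers differed between the genotypes at the same stages, and their part in these values was not tested.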

How the results depend on the processing

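Of 1070 alternatives to 85 member results, 1021 kept direction and side of the threshold, 46 lost the call, 3 gained it and none reversed. Counts of genes called moved more, and the cause was not tested. KO against WT in mESCs called 64 genes, and 164 with no filter, 42 with the same sum, 98 with the replicate block and 1 in the mESC libraries alone. At day 9 it called 809, and 1221 with no filter and 1377 in its libraries alone. In NSCs it called 729, and 1145 with the replicate block and 58 in its libraries alone, and a pseudocount of 0.1 called 1 of the 9 Wnt genes instead of 0. The differences of effect from mESCs called 203 genes at day 7, and 330 with the replicate block; 324 at day 9, and 165 with a pseudocount of 0.1 and 537 with no filter; and 274 in NSCs, and 504 with the replicate block, where a pseudocount of 0.1 or the same sum left 0 of the 9 instead of 1. The difference between day 9 and day 7 called 221, and 87 with a pseudocount of 0.1, where the Dkk1 difference missed the threshold (adjusted p = 0.132, limma), and 411 with no filter. The replicate block changed no call on the 9.

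Leaving out 1 library gave 20 to 112 genes in mESCs with 0 to 1 of the 9, 273 to 521 at day 7 with 2 to 4, 449 to 752 at day 9 with 4 to 5, and 406 to 1352 in NSCs. For the differences from mESCs it gave 119 to 253 at day 7, 181 to 360 at day 9, and 146 to 607 in NSCs with 0 to 1 of the 9, and for day 9 against day 7 it gave 138 to 253. The lowest came without KO mESC replicate 3, WT day 7 replicate 2, WT day 9 replicate 2 and KO NSC replicate 3 in the KO against WT comparisons. Levels near 1 read, as for Dkk1 in NSCs or Sp5 in KO NSCs, show no difference at this depth.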
